A study of Mus musculus with 6 samples.

Results

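Classical monocytes are short-lived blood phagocytes marked in mice by high Ly6c2 and Ccr2. They leave the circulation through the chemokine receptor Ccr2, enter inflamed tissue and tumors, and can there take on macrophage or dendritic cell features. Within blood, part of them convert to Ly6c-low non-classical monocytes, which patrol the vessel wall, depend on the nuclear receptor Nr4a1 and carry Ace, Treml4, Adgre4, Ceacam1 and Cx3cr1. In single-cell RNA-Seq of CD45+ cells isolated out of B16-F10 tumors, classical monocytes were chosen here by their UMI counts, a UMI being 1 counted RNA molecule. Barcodes were kept with 600 to 4000 genes and no more than 10% of UMIs from mitochondrial genes. A kept barcode was taken as a classical monocyte when Chil3, Ly6c2, Ccr2 and Vcan together had at least 4 UMIs and Lyz2 at least 5. In addition it could hold at most 1 UMI each of the C1q genes, of Csf3r and Retnlg, of Cd209a and Mgl2, and of Ppbp and Ccl24, at most 2 UMIs of Mmp12, Mmp13 and Hilpda, and none of the Cd3 genes or of Cd79a, Cd79b and Ms4a1. There were 1067 such monocytes among 30067 kept and 52899 deposited barcodes.

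Melanomas grew in female C57BL/6 mice aged 6 to 10 weeks. Animals of both groups were given αPD-1 antibody, 150 μg 3 times weekly, starting on day 7. The αPD-1 + corin group (3 samples) also received 200 μg of corin, an inhibitor of the CoREST repressor complex, by daily intraperitoneal injection from day 6, while the protocol gives vehicle as the control for the αPD-1 group (3 samples). Arms were of 10 mice, and which of them gave a sample is not told by the labels, so p values measure the spread between these samples. Tumor cell suspensions had been frozen, thawed, depleted of dead cells and enriched for CD45 with beads. The samples used here hold no vehicle or corin-only tumors, so every comparison is of corin added to αPD-1, called here corin samples against αPD-1 controls.

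The label was checked against markers. Hp, a classical monocyte marker that the choice did not use, was found in 26.6% to 42.3% of the monocytes of the αPD-1 controls and in 24.1% to 43.9% of those of the corin samples after each cell was thinned to 1000 UMIs. In T cells (at least 2 UMIs of the Cd3 genes, fewer than 5 of Lyz2 and at most 1 of the C1q genes) the share was at most 2.71% in any sample. Plac8, another monocyte gene, was found in 82.5% to 94.0% of monocytes and in 15.6% to 32.8% of T cells. In macrophages with at least 5 C1q UMIs, Plac8 was found in 16.3% to 26.4% of cells of the αPD-1 controls. The share there was 29.2% to 49.3% in the corin samples, while Hp reached at most 4.12% of macrophages in any sample. Of the genes used for the choice, each monocyte sample had a UMI of Chil3 in 53.2% to 85.9% of cells, of Ly6c2 in 70.5% to 89.5%, of Ccr2 in 70.4% to 94.9% and of Vcan in 55.7% to 65.7%. The median sum over these 4 genes was 14, 15 and 13 UMIs per cell in the αPD-1 controls and 9, 9 and 12.5 UMIs in the corin samples. At the edge of the rule, 93 monocytes had a sum of exactly 4 and 122 barcodes that met every other criterion had a sum of 3. The C1q limit was met with exactly 1 UMI by 103 monocytes and exceeded by 1 UMI in 49 further barcodes. No barcode sequence was shared between samples among the monocytes.

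Several features of the samples bear on the results. The monocyte sums held 427349 to 940312 UMIs per sample. In log2 CPM over the tested genes, corin replicate 3 correlated with the αPD-1 controls at r = 0.945 to 0.948, and the other corin samples did so at 0.901 to 0.931. Neutrophils, called by Csf3r and Retnlg, numbered 2, 4 and 2 in the αPD-1 controls and 113, 255 and 12 in the corin samples. Among T cells taken without a C1q limit, those with a UMI of S100a8 or S100a9, which encode cytosolic proteins abundant in neutrophils, made up 0.443% to 0.826% in the αPD-1 controls and 31.1%, 50.1% and 6.92% in the corin samples. Those with more than 1 C1q UMI, a level that the monocyte rule excludes, made up 6.43% to 8.87% and 10.7% to 14.0%.

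How large the monocyte population was under each treatment was compared first. Classical monocytes were 3.34%, 3.69% and 5.72% of kept barcodes in the αPD-1 controls and 3.31%, 1.89% and 3.49% in the corin samples. The groups overlapped. The mean share was 4.25% ± 1.28 (SD, n = 3) against 2.90% ± 0.87 (SD, n = 3), and the difference did not exceed the spread (two-sided exact permutation test, p = 0.2, adjusted p = 0.2 over 3 measures). Counting error was smaller than this spread, with a 95% Wilson interval of 1.52% to 2.35% for the lowest sample. Wilson intervals cover counting error only.

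Among myeloid barcodes (at least 5 Lyz2 UMIs and none of the T and B cell genes), the picture was one of separate groups. Monocytes made up 25.9%, 24.7% and 36.9% of these barcodes in the αPD-1 controls and 6.70%, 6.41% and 18.0% in the corin samples. Every αPD-1 control was above every corin sample. The means were 29.2% ± 6.7 and 10.4% ± 6.6 (SD, n = 3 each), with p = 0.1 and adjusted p = 0.15 in the exact permutation test, where 0.1 is the smallest p that 3 samples against 3 can give. Set against C1q macrophages (at least 5 UMIs of C1qa, C1qb and C1qc), the log2 ratio of monocytes was -0.86, -1.02 and 0.06 in the αPD-1 controls and -3.38, -3.16 and -1.59 in the corin samples (p = 0.1, adjusted p = 0.15, exact permutation test). These macrophages numbered 270, 281 and 242 in the αPD-1 controls and 2867, 704 and 517 in the corin samples, while monocytes numbered 149, 139 and 253 and then 275, 79 and 172. corin replicate 3 lay nearest to the αPD-1 controls in both measures. The C1q limit of the rule excluded 40, 52 and 64 barcodes that met all other criteria in the αPD-1 controls and 422, 150 and 103 in the corin samples.

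**Figure D1:**
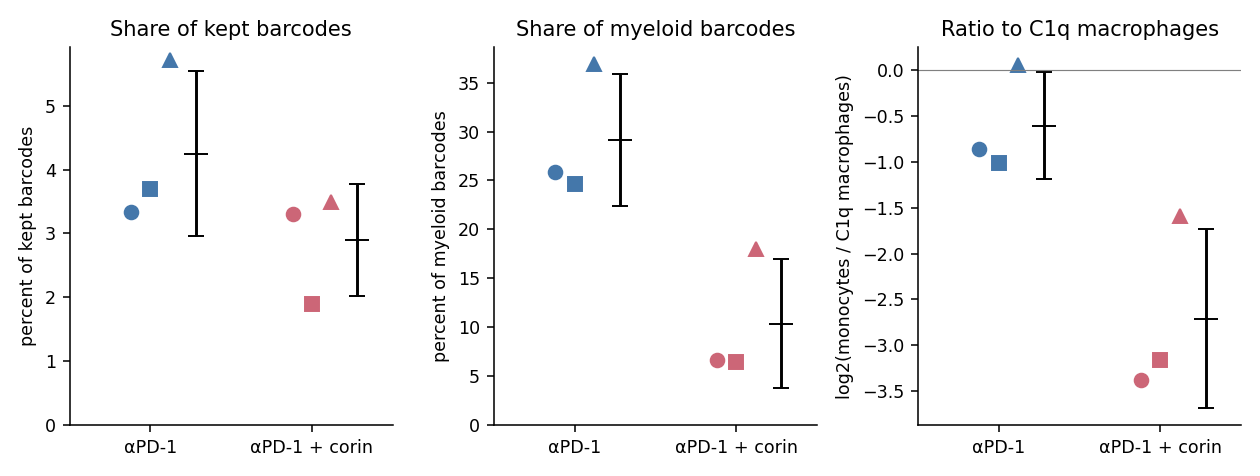
Classical monocytes in each sample as percent of kept barcodes (left), as percent of myeloid barcodes (middle) and as log2 ratio to C1q macrophages (right); blue symbols are αPD-1 and red symbols αPD-1 + corin, with circles, squares and triangles for replicates 1, 2 and 3 and black bars for the mean ± SD. The groups overlap in the left panel, and the corin samples lie at 6.41% to 18.0% of myeloid barcodes against 24.7% to 36.9% in the middle panel.

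Gene expression was compared on UMI counts summed over the monocytes of each sample with edgeR's quasi-likelihood test. Of 6756 genes tested outside the rule, 70 were higher and 61 lower in corin monocytes at an adjusted p under 0.05, which is 1.04% and 0.903% of the tested genes. For 21.0% of all tested genes every sample of one group lay above every sample of the other, and the median log2 fold change over all of them was 0.0064. A positive log2 fold change is higher with corin. The filter on low counts can be met by the samples of a single group. Some genes met it through the samples of one group and would not have met it by those of the other. Among the genes named below, at least S100a8, S100a9, Wfdc21, Cxcl1, Lrg1, Cd38 and Mki67 met it only through the corin samples. At least Hes1, Ace, Adgre4, Ear2 and Treml4 did so only through the αPD-1 controls. That fixed or favored their direction, so their adjusted p values do not test it. Below, levels are normalized CPM (UMIs scaled to a common library size, with TMM factors), given for replicates 1 to 3 of a group in order, and ± marks the standard error of a log2 fold change.

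The non-classical monocyte genes were lower as a group. Of the 14 genes on this list, 12 passed the filter on low counts, 6 fell and none rose, with a median log2 fold change of -1.18. In 11 of the 12, all but Cd36, every sample of the first group lay above every sample of the second. Ace, the angiotensin-converting enzyme (chr11:105858469-105880790, GRCm39), was at 105, 121 and 80.0 CPM in the αPD-1 controls and at 4.44, 2.51 and 28.4 CPM in the corin samples. Its log2 fold change was -3.03 ± 0.45 (edgeR, adjusted p = 0.00675). Adgre4, an adhesion receptor of the EGF-TM7 family, was at 77.3, 70.8 and 43.8 CPM against 5.55, 15.1 and 10.5 CPM (-2.73 ± 0.37, adjusted p = 0.00342). Both genes were among the largest falls, for which separate groups were a condition. corin replicate 3 was the highest of its group for Ace but not for Adgre4.

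Treml4, a receptor that enhances TLR7 signaling, was at 42.2, 40.9 and 36.2 CPM against 15.5, 22.6 and 5.98 CPM (-1.50 ± 0.35, adjusted p = 0.0493). Its call was lost without any 1 sample other than corin replicate 3. Ceacam1, a cell adhesion molecule of this subset, was at 114, 89.6 and 91.0 CPM against 34.4, 30.1 and 53.8 CPM (-1.28 ± 0.23, adjusted p = 0.0170). The fractalkine receptor gene Cx3cr1 was at 63.2, 81.8 and 62.5 CPM against 32.2, 30.1 and 38.9 CPM (-1.01 ± 0.22, adjusted p = 0.0372). Pou2f2, which encodes the transcription factor Oct-2, fell by 0.76 on the log2 scale. Nr4a1 did not pass the test, with a log2 fold change of -0.86 (adjusted p = 0.0834), and neither did Pglyrp1 at -1.62 (adjusted p = 0.0505) or Itgal at -1.09 (adjusted p = 0.0512).

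The share of monocytes with transcripts of this subset showed the same ordering. After thinning to 1000 UMIs per cell, 9.40%, 6.47% and 7.91% of the monocytes of the αPD-1 controls had an Ace UMI, against 0.727%, 0% and 4.68% in the corin samples. With 79 cells, the 0 of corin replicate 2 allows a share of up to 3.80%. T cells had an Ace UMI in at most 0.181% of cells. Without thinning, a UMI of Ace, Treml4, Cd300e or Spn was present in 30.9%, 37.4% and 24.9% of the monocytes of the αPD-1 controls and in 11.6%, 19.0% and 15.7% of those of the corin samples. Within the αPD-1 controls, monocytes with such a UMI had mean CPM of 111 for Cx3cr1, 722 for Ly6c2 and 452 for H2-Ab1, and monocytes without one had 48.8, 1132 and 1037. Ccr2, Vcan, Fn1 and F13a1 were also lower with such a UMI, at 521, 381, 610 and 469 CPM against 723, 590, 789 and 745 CPM. Chil3, Plac8 and Hp were higher with it, at 2345, 4545 and 582 CPM against 2081, 3251 and 539 CPM, so classical monocyte genes went both ways. In the corin samples the means of Cx3cr1, Ly6c2 and H2-Ab1 were 47.0, 958 and 2227 CPM with such a UMI and 29.6, 990 and 1942 CPM without one. There the order varied by sample. Ly6c2 was at 517, 1164 and 1193 CPM with such a UMI and at 768, 924 and 1280 CPM without one. H2-Ab1 was at 2437, 3374 and 871 CPM against 1768, 2986 and 1071 CPM. In corin replicate 2 only 15 monocytes had such a UMI. In T cells, which express Spn, the unthinned share with a UMI of these 4 genes was 22.4% to 29.9% in the αPD-1 controls and 28.6% to 36.2% in the corin samples.

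When monocytes with a UMI of those 4 genes were left out, an alternative chosen after seeing the data, 14 genes were higher and 8 lower, and all 22 were among the original calls. None of the 7 tested non-classical genes passed the test there (median -0.64), but the cells were removed by genes of this list, which lowers its counts by construction. It removed 46, 52 and 63 monocytes of the αPD-1 controls and 32, 15 and 27 of the corin samples, 235 in all.

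The largest falls outside this list were in genes of mixed function. Hes1, a transcriptional repressor induced by Notch, was at 45.7, 61.3 and 38.4 CPM in the αPD-1 controls and at 2.22, 0 and 8.97 CPM in the corin samples (-3.50 ± 0.49, adjusted p = 0.00432). Ear2, an eosinophil-associated ribonuclease from a family of close paralogs among which reads can be split, was at 116, 95.9 and 54.8 CPM against 11.1, 22.6 and 14.9 CPM (-2.52 ± 0.35, adjusted p = 0.00397). No overlap between the groups was a condition for naming both. Plcl1, Ypel2, Nxpe4 and Gm10501 fell by 1.70, 1.80, 1.86 and 2.00 on the log2 scale.

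Heat shock genes made the second group that fell. They encode chaperones that refold proteins, and heat shock factor 1 induces them under heat and other proteotoxic stress through heat shock elements in their promoters. On the list of 18 immediate early and heat shock genes, all tested, 7 fell and none rose, with a median log2 fold change of -0.57. The 7 were Hspa1a, Hspa1b, Hsph1, Dnajb1, Hsp90aa1, Jun and Btg2. Promoters of the strongest members are printed to show what they share, from RefSeq on GRCm38.p6, 250 bases before to 50 after the start, 5′ to 3′ on the gene's strand, with GAANNTTC or TTCNNGAA, which read the same on both strands, in capitals.
Hspa1a, minus strand of chr17:34972107-34972406: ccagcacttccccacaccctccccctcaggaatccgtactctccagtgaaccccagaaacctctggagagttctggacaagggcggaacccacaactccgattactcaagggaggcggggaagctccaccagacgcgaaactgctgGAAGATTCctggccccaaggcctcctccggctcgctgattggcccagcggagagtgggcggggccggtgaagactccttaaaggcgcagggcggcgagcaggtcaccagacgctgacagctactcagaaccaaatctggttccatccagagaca
Hspa1b, minus strand of chr17:34959189-34959488: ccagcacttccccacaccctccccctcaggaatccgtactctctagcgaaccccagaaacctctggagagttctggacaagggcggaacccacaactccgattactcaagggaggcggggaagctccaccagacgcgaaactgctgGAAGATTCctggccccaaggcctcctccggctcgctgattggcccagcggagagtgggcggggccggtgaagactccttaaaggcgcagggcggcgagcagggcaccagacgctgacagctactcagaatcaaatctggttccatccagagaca
Hsph1, minus strand of chr5:149636287-149636586: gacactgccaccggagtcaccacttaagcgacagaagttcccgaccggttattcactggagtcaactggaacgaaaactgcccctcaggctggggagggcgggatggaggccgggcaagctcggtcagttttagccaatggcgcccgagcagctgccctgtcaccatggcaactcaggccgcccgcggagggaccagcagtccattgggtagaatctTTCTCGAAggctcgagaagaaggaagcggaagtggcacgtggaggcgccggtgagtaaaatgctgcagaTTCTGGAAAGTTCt

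Hspa1a and Hspa1b promoters differed at 4 of 300 positions and each held 1 match, and the Hsph1 promoter held 3 matches, of which a pair overlapped. At least 1 match was found in 15.1% of all 32851 promoters of this length, and 3 or more in 0.256%. Neither listed Dnajb1 promoter held one. A match is a description of the sequence only.

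Hspa1a, the inducible Hsp70 gene, was at 2465, 2107 and 2071 CPM in the αPD-1 controls and at 238, 261 and 831 CPM in the corin samples (-2.31 ± 0.36, adjusted p = 0.00860). Hspa1b, its near-identical neighbor, was at 1657, 1596 and 1306 CPM against 129, 161 and 514 CPM (-2.49 ± 0.38, adjusted p = 0.00739). Reads of these paralogs can be assigned to either gene, so their split is uncertain. Hsph1, the Hsp110 co-chaperone, was at 290, 217 and 240 CPM against 38.8, 40.1 and 118 CPM (-1.90 ± 0.31, adjusted p = 0.0115). Bag3, a co-chaperone of Hsp70 that is not on the list, was at 283, 226 and 205 CPM against 34.4, 30.1 and 114 CPM (-1.96 ± 0.34, adjusted p = 0.0160). In each of these genes corin replicate 3 lay between the other samples of its group and the αPD-1 controls.

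Dnajb1, an Hsp40 gene, was at 430, 346 and 230 CPM against 98.8, 72.8 and 170 CPM (-1.52 ± 0.27, adjusted p = 0.0170). Hsp90aa1, the inducible Hsp90, was at 1748, 1403 and 1302 CPM against 578, 517 and 796 CPM (-1.23 ± 0.17, adjusted p = 0.00397). Among the other listed genes, the immediate early genes Jun and Btg2 fell by 0.89 and 0.67 on the log2 scale (edgeR adjusted p = 0.0170 and 0.0422). Of all 18 listed genes 3 had a positive log2 fold change and none of these passed. The heat shock difference was also seen outside monocytes. In CPM of all UMIs, Hspa1a was at 1171, 1050 and 880 in T cells of the αPD-1 controls and at 185, 138 and 524 in those of the corin samples. C1q macrophages held 712, 647 and 676 CPM against 176, 169 and 415 CPM. What moved these genes in several cell types was not tested.

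**Figure D2:**
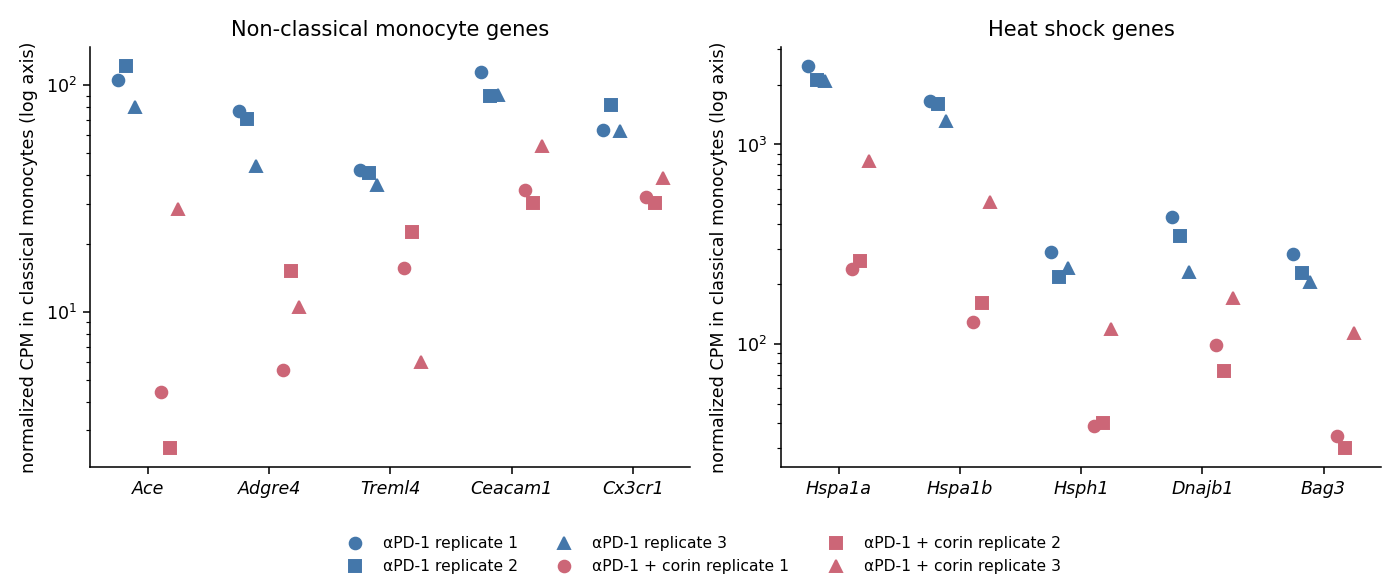
Normalized CPM on a log axis in the classical monocytes of each sample for 5 non-classical monocyte genes (left) and 5 heat shock genes (right), with blue for αPD-1, red for αPD-1 + corin and symbols for replicates. Every αPD-1 control lies above every corin sample for all 10 genes, and the triangle of corin replicate 3 is the highest red symbol for Ace, Ceacam1, Cx3cr1 and each heat shock gene. For Ace, Adgre4, Hspa1a, Hspa1b, Hsph1 and Bag3 the separation was a condition for naming them among the largest falls.

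Among the largest rises were S100a8 and S100a9, the subunits of calprotectin, which neutrophils carry in bulk and monocytes at lower level. S100a9 had 0, 0 and 1.10 CPM in the αPD-1 controls, 1 UMI in all, and 887, 1493 and 251 CPM in the corin samples (edgeR, adjusted p = 0.000150). The ratio of pooled UMIs was 1626, with a counting interval of 291 to 64256. S100a8 was at 15.8, 11.0 and 27.4 CPM against 1146, 908 and 420 CPM (5.43 ± 0.39, adjusted p = 2.70e-05). T cells, which should lack both genes, were taken as a background, and how the UMIs came to be in their barcodes was not tested. In T cells of the corin samples S100a8 was at 1105, 1835 and 139 CPM and S100a9 at 2106, 4459 and 258 CPM of all UMIs.

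At 1000 UMIs per cell, S100a8 was detected in 18.5%, 20.3% and 12.9% of the monocytes of the corin samples and in 20.8%, 33.2% and 3.22% of their T cells. S100a9 was detected in 13.5%, 21.5% and 4.09% of monocytes and in 22.5%, 40.9% and 4.04% of T cells. In corin replicates 1 and 2 the monocyte shares were below those of T cells. In replicate 3, S100a8 was detected more often in monocytes than in T cells, and S100a9 at nearly the same share in both. The source of these UMIs was not tested. Median depth before thinning was 3011 to 4894 UMIs in these monocytes and 2282 to 4200 UMIs in these T cells.

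**Figure D3:**
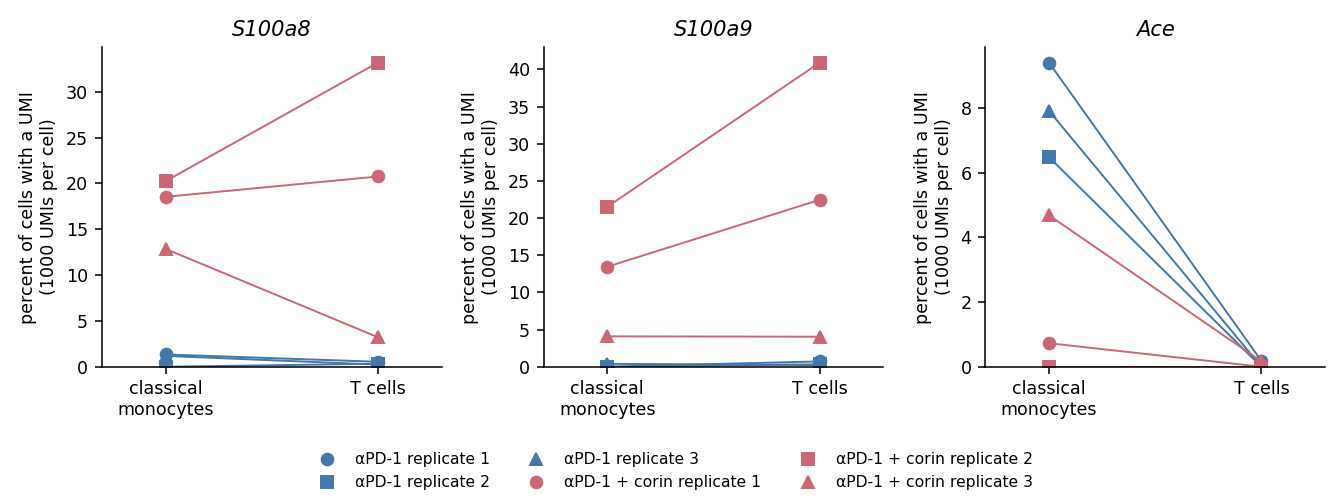
Percent of classical monocytes and of T cells with a UMI of S100a8, S100a9 or Ace after each cell was thinned to 1000 UMIs, with a line for each sample, blue for αPD-1 and red for αPD-1 + corin. For S100a8 and S100a9 the red lines of replicates 1 and 2 are higher in T cells than in monocytes, and for Ace no T cell share exceeds 0.181%.

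Of 16 neutrophil markers 8 passed the filter and 4 rose, namely S100a8, S100a9, Lcn2 and Il1r2. None was lower, and Ngp and Camp were at 0 in every sample. The summed level of the list was 302 to 415 CPM of all UMIs in the monocytes of the αPD-1 controls and 1304 to 3066 CPM in those of the corin samples, beside 101 to 205 and 647 to 8141 CPM in T cells. Lcn2, which binds bacterial siderophores, was at 47.4, 50.3 and 32.9 CPM against 205, 85.3 and 86.7 CPM (1.62 ± 0.33, adjusted p = 0.0300). In T cells of the corin samples it was at 129, 50.9 and 20.1 CPM of all UMIs. Il1r2, the decoy receptor for IL-1, was at 63.2, 45.6 and 49.3 CPM against 105, 211 and 100 CPM (1.34 ± 0.28, adjusted p = 0.0311), and T cells held 288, 289 and 62.5 CPM in the corin samples.

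Wfdc21, a small secreted WAP domain gene, had no UMI in the monocytes of any αPD-1 control and 66.6, 32.6 and 41.8 CPM in the corin samples, at least 35.0-fold higher over the pooled UMIs with a floor of 3 counts (edgeR, adjusted p = 0.000822). Lrg1, a secreted leucine-rich glycoprotein, was at 10.5, 7.86 and 3.29 CPM against 86.6, 60.2 and 38.9 CPM (3.21 ± 0.43, adjusted p = 0.00332). In CPM of all UMIs, Wfdc21 was at 63.8, 30.4 and 40.3 in the monocytes of the corin samples and at 17.2, 31.5 and 1.10 in their T cells, so that T cells held slightly more in replicate 2. On that scale Lrg1 was at 83.0, 56.2 and 37.4 CPM in these monocytes and at 24.6, 8.89 and 5.12 CPM in these T cells, lower in each sample.

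Prtn3, Ifitm1 and Cd38 also rose, and their level in T cells differed from gene to gene. Prtn3, proteinase 3, a granule protease made early in myeloid development, was at 21.1, 18.9 and 26.3 CPM in the αPD-1 controls and at 122, 118 and 77.7 CPM in the corin samples (2.22 ± 0.25, adjusted p = 0.000822), with at most 4.92 CPM in T cells and 48.4 CPM in neutrophils of the corin samples. Ifitm1, an interferon-inducible membrane protein, was at 38.6, 64.5 and 61.4 CPM against 686, 467 and 294 CPM (3.12 ± 0.29, adjusted p = 0.000181), with 881, 182 and 92.7 CPM in T cells of the corin samples. Cd38, an NAD-consuming ectoenzyme, was at 5.27, 3.14 and 5.48 CPM against 52.2, 50.2 and 26.9 CPM (3.14 ± 0.42, adjusted p = 0.00332), and T cells held 26.3 to 32.7 CPM with corin and 19.2 to 30.5 CPM without. That the groups did not overlap was a condition for naming these 3 genes.

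Among macrophage maturation genes, 22 of 24 passed the filter and 20 of the 22 had a positive log2 fold change, with a median of 0.90, but only Mrc1 passed the test. Mrc1, the mannose receptor CD206, was at 47.4, 55.0 and 55.9 CPM against 528, 632 and 82.2 CPM (2.94 ± 0.53, adjusted p = 0.0170), and T cells held at most 48.0 CPM. corin replicate 3 lay close to the αPD-1 controls. Without it 16 of 23 tested genes of the list rose. Apoe had a log2 fold change of 1.24 (adjusted p = 0.0832), Ctsd of 1.31 (adjusted p = 0.0531) and Mertk of 2.23 (adjusted p = 0.0583).

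MHC class II genes, which serve antigen presentation to CD4+ T cells, had 2 of 10 tested members higher out of 13 listed (median 0.58). H2-Ab1 was at 898, 975 and 677 CPM against 1960, 3292 and 1077 CPM (1.31 ± 0.29, adjusted p = 0.0415). H2-DMb1, part of the peptide exchange factor, was at 169, 182 and 130 CPM against 228, 321 and 278 CPM (0.77 ± 0.17, adjusted p = 0.0409). The H2-Aa and Cd74 log2 fold changes of 1.39 (adjusted p = 0.0535) and 1.10 (adjusted p = 0.0607) did not pass. T cells of the corin samples held 2382, 741 and 565 CPM of H2-Ab1, compared with 363, 178 and 522 CPM without corin.

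Of the inflammatory cytokine and chemokine genes, 24 of 29 passed the filter, 5 rose and none fell (median 0.60). Cxcl1 and Cxcl2 encode ligands of the neutrophil receptor Cxcr2. Cxcl1 was at 15.8, 31.4 and 2.19 CPM in the αPD-1 controls and at 186, 85.3 and 152 CPM in the corin samples (3.27 ± 0.47, adjusted p = 0.00466), with 27.1, 37.6 and 21.9 CPM in T cells of the latter. Cxcl2 was at 1997, 1494 and 1962 CPM against 5891, 4780 and 3531 CPM (1.38 ± 0.18, adjusted p = 0.00262), and here T cells rose to 2885, 4197 and 485 CPM from 81.9 to 216 CPM. Ccl2, the main ligand of Ccr2, was at 1291, 918 and 1943 CPM against 3677, 3116 and 2020 CPM (1.08 ± 0.25, adjusted p = 0.0451), with at most 192 CPM in T cells. Il1a and Tnfsf9 rose by 1.53 and 1.15 on the log2 scale. Il1b, at 0.61 (adjusted p = 0.186), and Tnf, at 0.28 (adjusted p = 0.642), did not pass.

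Among NF-kB and inflammasome genes 3 of 22 rose (median -0.02). Nlrp3, the inflammasome sensor, was at 116, 91.2 and 98.7 CPM against 218, 216 and 166 CPM (0.97 ± 0.17, adjusted p = 0.0136). Its adaptor Pycard rose by 0.61 and the early response gene Ier3 by 1.08 on the log2 scale. Of 21 alternatives, the call of Pycard was lost in 14, that of Nlrp3 in 9 and that of Ier3 in 5. None of the 22 passed with the replicate block or without any 1 αPD-1 control. On the list of 19 myeloid suppressor genes, 14 were tested and 5 rose (median 0.41), namely S100a8, S100a9, Arg2, Slc7a11 and Wfdc17. Without monocytes with an S100a8 or S100a9 UMI, which lowers these genes by construction, 12 were tested and none passed. The list summed to 3454 to 3548 CPM of all UMIs in monocytes without corin and to 4157 to 6505 CPM with it. T cells held 572 to 664 and 1144 to 7685 CPM, more than monocytes in corin replicate 2. The part of such RNA in these rises was not tested. Arg1, the arginase of suppressive myeloid cells, was at 82.6, 23.6 and 62.5 CPM against 1151, 913 and 17.9 CPM (3.62 ± 0.87, adjusted p = 0.0546), so 1 corin sample lay below all αPD-1 controls. Cd274, which encodes PD-L1, had a log2 fold change of 0.30 (adjusted p = 0.663).

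Cell cycle genes were at low levels, and 9 of 20 listed genes passed the test as higher. The filter on low counts kept 12 of the 20, and genes with a few UMIs in the αPD-1 controls, such as Stmn1, Ube2c and Birc5, passed it only through the corin samples, which fixes their direction, so the median of 1.60 is a description. With equal numbers of monocytes 6 genes were tested, 2 rose and the median was 0.45. Stmn1, a microtubule regulator high in dividing cells, was at 1.76, 3.14 and 5.48 CPM against 25.5, 50.2 and 23.9 CPM (2.98 ± 0.49, adjusted p = 0.0112). Mki67, the proliferation marker Ki-67, was at 15.8, 7.86 and 16.4 CPM against 51.1, 103 and 41.8 CPM (2.15 ± 0.39, adjusted p = 0.0170). Ube2c, a ubiquitin ligase cofactor of mitosis, was at 1.76, 3.14 and 3.29 CPM against 18.9, 65.2 and 22.4 CPM (3.38 ± 0.64, adjusted p = 0.0193). Top2a and Birc5 rose by 2.48 and 2.92 on the log2 scale. These sums rest on few molecules per sample. After thinning, a Mki67 UMI was found in 0% to 2.68% of the monocytes of the αPD-1 controls and in 1.17% to 3.27% of those with corin, and the groups overlapped. In T cells the thinned share was 6.98% to 9.26% in the αPD-1 controls and 11.5% to 13.6% in the corin samples, above the monocyte share in every sample and without overlap between groups. T cells held 237, 175 and 211 CPM of Mki67 without corin and 176, 222 and 237 CPM with it, in CPM of all UMIs, which overlapped. T cells divide themselves, and the part of their RNA in the monocyte values was not tested. Without αPD-1 replicate 1, and likewise without αPD-1 replicate 2, no cell cycle gene passed.

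**Figure D4:**
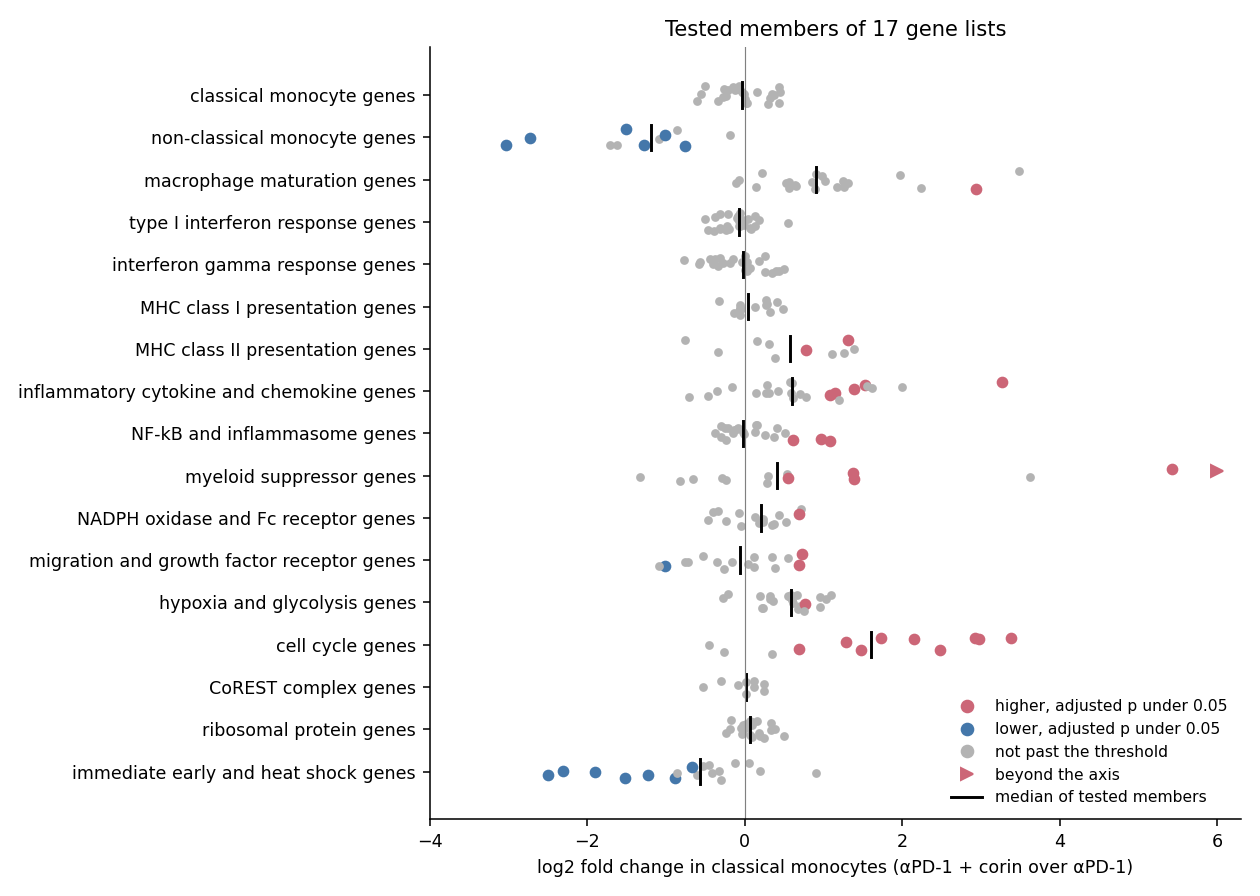
Log2 fold change (αPD-1 + corin over αPD-1) in classical monocytes of the tested members of 17 gene lists, with red and blue points for genes that passed the edgeR test, grey points for the others, black bars for the median and a triangle for S100a9 beyond the axis. The median of the non-classical monocyte list is at -1.18, while the interferon and classical monocyte lists lie around 0.

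Several programs showed no called gene. Of the 26 classical monocyte genes 25 were tested and none passed (median -0.03). Ifitm3 was at 4949, 4870 and 5059 CPM against 5109, 4760 and 5284 CPM (0.03 ± 0.10, adjusted p = 0.932). Hp was at 717, 494 and 486 CPM against 538, 339 and 708 CPM (-0.08 ± 0.23, adjusted p = 0.900). Fn1 had a log2 fold change of 0.43 (adjusted p = 0.350). The genes of the rule are given as values only. Ly6c2 was at 996, 1083 and 954 CPM against 758, 1046 and 1313 CPM, and Chil3 was at 2416, 1720 and 2462 CPM against 1147, 655 and 1545 CPM.

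Interferon response genes did not pass either, with 0 of 26 tested type I genes (30 listed, median -0.08) and 0 of 24 tested interferon gamma genes (27 listed, median -0.02). This depended on the corin samples. Without corin replicate 3, 2 type I genes (median -0.27) and 8 interferon gamma genes (median -0.44) were lower. Without corin replicate 1 the medians were 0.11 and 0.19, and 1 type I gene was higher. Cxcl10, the Cxcr3 ligand, spread widely in one group, at 873, 857 and 626 CPM in the αPD-1 controls and at 169, 489 and 1454 CPM in the corin samples (-0.16 ± 0.50, adjusted p = 0.917). Isg15 had a log2 fold change of -0.10 (adjusted p = 0.836). MHC class I genes (14 tested, median 0.04), ribosomal protein genes (24 tested, median 0.06) and metallothionein genes (2 of 3 tested, median 1.23) had no called member, with B2m at -0.07 and Mt1 at 0.46. Subunits of the CoREST complex, the target of corin, had 9 of 12 genes tested and none called (median 0.02), with Phf21a at 0.02 ± 0.19 and Hdac1 at 0.12 ± 0.19. Hypoxia and glycolysis genes had 1 of 22 tested genes higher (23 listed, median 0.59), Pgk1 at 327, 349 and 333 CPM against 672, 642 and 406 CPM (0.77 ± 0.18, adjusted p = 0.0451). Of the 22 tested, 20 had a positive log2 fold change. Without corin replicate 3, 15 were higher, and with no upper limit on genes 10 were. Of the NADPH oxidase and Fc receptor genes 1 of 16 tested rose (18 listed, median 0.21). It was the integrin gene Itgb2, the shared beta chain of leukocyte integrins (0.69 on the log2 scale, edgeR adjusted p = 0.0224).

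Markers of other lineages had no called gene in monocytes for T and NK cells, B and plasma cells, dendritic cells, melanoma or stroma. Few of them could be called. Tested were 2 of 14 T and NK cell, 1 of 12 B and plasma cell and 4 of 15 dendritic cell markers. For melanoma 4 of 9 and for stroma 1 of 11 markers were tested. Their summed levels in the αPD-1 and the corin samples were 120 to 179 and 100.0 to 323 CPM of all UMIs for T and NK cells, 148 to 250 and 67.7 to 98.3 CPM for B and plasma cells, and 371 to 416 and 402 to 520 CPM for dendritic cells. Melanoma markers summed to 97.1 to 183 and 164 to 280 CPM, and stromal markers to 6.97 to 41.6 and 4.32 to 1206 CPM. The stromal value of 1206 CPM was that of corin replicate 1, in which T cells held 3266 CPM. The part of such RNA in the differences was not tested.

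Whether these differences were particular to monocytes was tested against C1q macrophages of the same samples by an interaction term. Of 8858 genes, 45 (0.508%) passed, 17 with a more positive and 28 with a more negative difference in monocytes. In macrophages alone 5 genes were higher and none lower among 9944 tested. The 5 leading genes, chosen by size among those with at least 20 CPM in some group, were all genes of dividing cells (Tpx2, Ccnb2, Stmn1, Birc5 and Pclaf). Stmn1 was at 98.0, 100.0 and 89.1 CPM in macrophages of the αPD-1 controls and at 71.6, 55.6 and 75.8 CPM in those of the corin samples, the opposite order to monocytes (interaction 3.47 ± 0.53, adjusted p = 0.0138). Birc5 was at 25.3, 32.3 and 37.9 CPM against 24.8, 22.6 and 33.7 CPM in macrophages (interaction 3.23 ± 0.61, adjusted p = 0.0264).

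Falls were tested in the same way. Hspa1a was at 714, 657 and 696 CPM in macrophages of the αPD-1 controls and at 192, 183 and 447 CPM in those of the corin samples, and its difference in monocytes was more negative (interaction -1.12 ± 0.18, adjusted p = 0.0138). Hspa1b gave an interaction of -1.09 ± 0.17 (adjusted p = 0.0138). Ceacam1 (interaction -2.15 ± 0.42, adjusted p = 0.0287) and Ace (-2.75 ± 0.56, adjusted p = 0.0389) also differed between the classes. Ace was at 2.05 to 5.53 CPM of all UMIs in macrophages of the αPD-1 controls. Adgre4 and Hsph1 did not pass this test (adjusted p = 0.353 and 0.478), nor did S100a8 and S100a9 (adjusted p = 0.827 and 0.970).

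**Figure D5:**
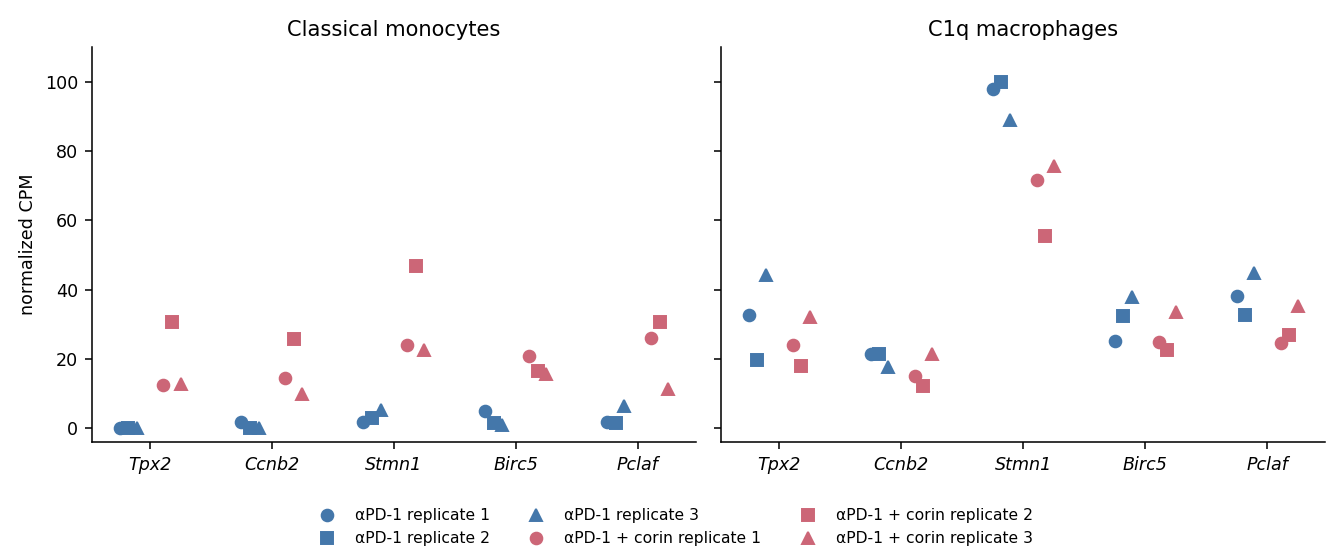
Normalized CPM of the 5 genes with the largest interaction in classical monocytes (left) and C1q macrophages (right) of each sample, with blue for αPD-1, red for αPD-1 + corin and symbols for replicates. In monocytes every red symbol lies above the blue ones, and in macrophages the values of both groups lie in a common range or, for Stmn1, the red symbols lie at 55.6 to 75.8 CPM below the blue ones at 89.1 to 100.0 CPM.

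The calls depended on which sample was left out. Without corin replicate 3, 343 genes were higher and 277 lower, and 69 of the 70 higher and all 61 lower genes were among them. Without αPD-1 replicate 1 the counts were 8 and 8, and without αPD-1 replicate 2 they were 9 and 5. Of the 45 named genes that passed, 10 kept their call in every alternative in which they were tested: S100a9, Wfdc21, S100a8, Lrg1, Cd38, Ifitm1, Prtn3, Hes1, Adgre4 and Cxcl2. Of these, only Ifitm1, Prtn3 and Cxcl2 were tested in all 21 alternatives. S100a9, Wfdc21, S100a8, Lrg1, Cd38, Hes1 and Adgre4 met the filter on low counts only through one group. Keeping their call therefore does not test their direction. S100a9, S100a8, Wfdc21 and Lrg1 were not tested when monocytes with an S100a8 or S100a9 UMI were left out, so their calls could not be lost there.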

How the data were processed

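Single-cell RNA-Seq was made with 10x Genomics 5′ chemistry from 3 αPD-1 and 3 αPD-1 + corin samples. The deposited values are raw UMI counts per gene and barcode, made by the authors with Cell Ranger 8.0.1 (file headers) without normalization, on GRCm39 per the study's methods. The gene list of 32285 genes holds older symbols, and 3 list symbols were matched through aliases. Of 422 list genes 4 were not measured. The monocyte rule, gene lists and tests were chosen with earlier results of these data known. UMI counts were summed per sample over monocytes and tested with edgeR 4.0.16 in R 4.3.3 (TMM, filterByExpr, quasi-likelihood, Benjamini-Hochberg, threshold 0.05). Interactions were fitted with the sample as a block. The 8 tested genes of the rule stayed in the fit with no call. Code was tested on simulated data. Shares were compared by exact permutation tests over samples. Named genes were the 12 largest rises and 12 largest falls (at least 20 CPM, no overlap), up to 4 called genes per list or else the 2 most abundant, the 5 largest interactions and 16 genes tracked as shares of cells. Apoe, Btg2, Ccl2, Cd36, Ctsd, Hsp90aa1, Itgal, Jun, Mertk, Nr4a1, Pglyrp1, Pou2f2, Tnf and Wfdc17, outside this rule, were chosen after their values were seen. Alternatives were other cutoffs for the monocyte sum, mitochondrial share and genes, Scrublet doublets removed (0.4% per 1000 barcodes, scanpy 1.11.5), the rule after thinning to 2000 UMIs, other denominators, RLE, DESeq2 1.42.0, no filter, equal monocyte numbers (79), lineage genes left out, the block and each sample left out. The main results keep doublets (4 monocytes were marked). The study's MAST test on cells was not used here. Gene positions are from GENCODE vM39. The counts of 1 gene list are not reported here.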

Additional observations from a re-analysis of the deposited data

Results flagged for a closer look

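The difference between treatments differed between classical monocytes and C1q macrophages, by the interaction test, in 45 genes. The genes named for size were Tpx2 (8.71), Ccnb2 (5.25), Stmn1 (3.47), Birc5 (3.23) and Pclaf (3.12), each as a difference of log2 fold changes, monocytes minus macrophages. In monocytes of the αPD-1 samples Tpx2 had no UMI and Ccnb2 had UMIs in 1 sample, so their fitted sizes depend on the prior count and are no bound. Without αPD-1 replicate 2 no gene passed this test by edgeR, with 793 genes at an unadjusted p under 0.05, and without αPD-1 replicate 1 only 1 gene did.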

How the results depend on the processing

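The monocyte shares kept their direction under every alternative run, and none passed the threshold, which 3 samples against 3 cannot reach. With each sample left out, the difference in the share of classical monocytes among kept barcodes was -1.81 to -0.619 percentage points, in the share of classical monocytes among myeloid barcodes -22.6 to -14.9 and in the log2 ratio of classical monocytes to C1q macrophages -2.67 to -1.77. With the replicate block (paired differences, exact sign-flip, p = 0.25, the smallest possible) the differences were -1.35, -18.8 and -2.11. Same-numbered samples did not deviate together (r = -0.053, -0.034 and -0.187), and other pairs lay at -0.120 to 0.176. With 3 samples per group this cannot tell whether same-numbered samples were handled together. The fit with the replicate block called 19 genes higher and 11 lower, of which 16 and 11 were among the original calls.

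Counts of genes higher and lower, 70 and 61 in the main fit, moved to 223 and 191 with no upper limit on genes, 34 and 28 with equal numbers of monocytes (fewer cells), 332 and 216 with no filter on low counts, and, in alternatives chosen after seeing the data, 14 and 8 without monocytes with a non-classical UMI and 32 and 36 without monocytes with an S100a8 or S100a9 UMI. Leaving out each sample gave 8 to 343 higher and 5 to 277 lower genes. The interaction count of 45 moved to 74 at a monocyte sum of at least 3, 143 with no upper limit, 26 for the rule after thinning and 260 with no filter, and ranged from 0 to 441 with each sample left out. The cause was not tested where no construction is named. The log2 fold change of Lcn2 turned to -0.035 without monocytes with an S100a8 or S100a9 UMI, which removed 7, 5 and 12 monocytes without corin and 86, 34 and 36 with it, and so lowers neutrophil genes by construction. RLE (70 and 60) and DESeq2 (57 and 46) stayed near the main counts.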
